A study of Mus musculus with 9 samples.

Results

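The voltage-gated calcium channel carries auxiliary subunits, among them alpha2delta and beta. The genes of these 2 kinds, Cacna2d1 to Cacna2d4 and Cacnb1 to Cacnb4, are described here across 3 tissues. These 8 genes were taken by symbol, and all 8 were found among the 22609 gene symbols of the count tables. The 3 tissues were hind paw punches, the L3 to L5 ganglia of the dorsal roots (DRG) and the lumbar area of the spinal cord, with 3 libraries each and 9 in all. The DRG hold the cell bodies of sensory neurons. Every library came from male C57 mice aged 8 to 12 weeks that had received both paclitaxel (PTX) and an antagonist of the lymphotoxin-beta receptor (LTβR). PTX, a chemotherapy drug that stabilises microtubules and can cause painful neuropathy, was given in the abdomen in 2 injections of 2 mg/kg. The antagonist was given at 15 µg per site into the hind paw and the spinal fluid, on days 1 and 4 per the sample titles, whereas the series text places it between the PTX doses and 1 day after them. Tissue was taken 6 days after the last PTX dose. Samples without the antagonist or PTX are not analysed here, so the comparisons are between tissues of treated mice and no drug effect was tested. The labels do not say whether samples of a tissue came from separate or pooled mice, so p-values measure only the spread between these samples. In bulk tissue, fewer cells of a type and less RNA per cell cannot be told apart.

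An alpha2delta subunit is a glycoprotein on the outer face of the membrane that raises the number of calcium channels at the surface and at presynaptic terminals. A beta subunit binds the pore from the inside and helps it reach the membrane. Gabapentin and pregabalin, drugs used against neuropathic pain, bind the proteins of Cacna2d1 and Cacna2d2 and not those of Cacna2d3 and Cacna2d4. In rodents the Cacna2d1 protein is known to rise in sensory neurons after nerve injury.

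The start sites of Cacna2d1, Cacna2d2 and Cacna2d3, the alpha2delta genes with 1 RefSeq start each, are shown because Cacna2d1 differed from the others in its order across tissues. Each run holds 250 bases before and 50 after the start, from RefSeq on build GRCm38.p6. Capitals mark the GC box GGGCGG on either strand, where neighbouring matches may overlap.
Cacna2d1 at chr5:15934441-15934740, plus strand: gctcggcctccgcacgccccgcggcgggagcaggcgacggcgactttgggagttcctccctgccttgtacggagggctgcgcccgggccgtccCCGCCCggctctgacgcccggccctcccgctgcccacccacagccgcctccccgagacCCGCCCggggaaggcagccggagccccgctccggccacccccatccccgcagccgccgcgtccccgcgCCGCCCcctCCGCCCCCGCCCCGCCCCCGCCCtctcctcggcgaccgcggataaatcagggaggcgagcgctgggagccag
Cacna2d2 at chr9:107399630-107399929, plus strand: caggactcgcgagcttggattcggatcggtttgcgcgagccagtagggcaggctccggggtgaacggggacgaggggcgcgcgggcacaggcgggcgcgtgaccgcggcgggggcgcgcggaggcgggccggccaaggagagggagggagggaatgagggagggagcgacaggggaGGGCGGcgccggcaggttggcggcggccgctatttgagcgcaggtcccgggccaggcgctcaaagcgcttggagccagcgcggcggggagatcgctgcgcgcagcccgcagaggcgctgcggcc
Cacna2d3 at chr14:29721815-29722114, minus strand: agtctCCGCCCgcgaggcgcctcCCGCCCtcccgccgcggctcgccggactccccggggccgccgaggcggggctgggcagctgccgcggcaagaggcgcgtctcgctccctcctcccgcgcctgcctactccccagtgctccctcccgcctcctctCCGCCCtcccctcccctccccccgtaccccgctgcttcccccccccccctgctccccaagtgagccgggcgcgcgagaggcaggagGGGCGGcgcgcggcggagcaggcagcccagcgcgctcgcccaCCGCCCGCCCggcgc
These windows held 7, 1 and 6 GC boxes in Cacna2d1, Cacna2d2 and Cacna2d3. Of 32851 RefSeq promoters of the same length, 35.7% held at least 1. Their GC content was 80.0%, 75.7% and 81.3%, against a median of 52.7% over all promoters. They held 42, 43 and 41 CpG sites, against a median of 7. On either strand, none of the 3 windows held the TATA box TATAAA, found in 13.6% of all promoters, or the CCAAT box, found in 37.4%. The E-box CACGTG and the cyclic AMP element TGACGTCA were not in these windows either, and 7.15% and 1.79% of all promoters held them.

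The libraries held 15537545 to 23229724 gene reads each. Levels are CPM, a gene's reads scaled to library size, in which the floor of 3 reads came to 0.134 to 0.185. Fold changes are log2 values ± SE (standard error). A gene is called where the Benjamini-Hochberg adjusted p of edgeR's quasi-likelihood test over 16091 genes was under 0.05. Marker genes matched the labelled tissues. Keratinocyte markers summed to 32910 to 49780 CPM in paw, 13.9 to 26.4 CPM in DRG and 31.9 to 36.2 CPM in spinal cord. Sensory neuron markers summed to 4679 to 5513 CPM in DRG and spinal neuron markers to 651 to 747 CPM in spinal cord. Of the latter, Slc6a5 had 0 reads in paw and DRG and 33, 26 and 295 reads in spinal cord 1 to 3. Markers of other tissue differed between libraries of a group. Skeletal muscle markers summed to 13310, 13610 and 17000 CPM in paw 1 to 3, to 607, 943 and 31.6 CPM in DRG 1 to 3 and to at most 62.7 CPM in spinal cord. Schwann and satellite glia markers summed to 8528 CPM in spinal cord 3, against 3102 and 3294 CPM in spinal cord 1 and 2. Markers of marrow neutrophils and red cells summed to 449, 99.5 and 127 CPM in spinal cord 1 to 3. In DRG 1 to 3 they summed to 94.7, 200 and 76.7 CPM.

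Of the 8 genes, 7 were called in each of the 3 comparisons, and Cacnb1 was called in none. Of these, 2 were higher and 5 lower in DRG than in spinal cord, where 59.6% of all genes tested were called, 29.0% as higher. Against DRG, 1 was higher and 6 were lower in paw, where 80.5% of all genes were called, 39.7% as higher. Paw over spinal cord also had 1 higher and 6 lower, where 81.6% of all genes were called, 39.9% as higher. The shares called are near the background in the paw comparisons, so the sizes and directions of the single genes are what the data describe. The number of members changed at least 2-fold was 5 for DRG over spinal cord, where 28.4% of all genes were. It was 5 for paw over DRG and 6 for paw over spinal cord, where 53.2% and 54.4% of all genes were. The median log2 fold change of the 8 genes was −0.44 for DRG over spinal cord, −2.31 for paw over DRG and −2.36 for paw over spinal cord. Over all genes these medians were −0.02, −0.02 and −0.03. All 8 genes passed the filter on low counts, Cacna2d4 through its reads in paw and spinal cord.

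**Figure D1:**
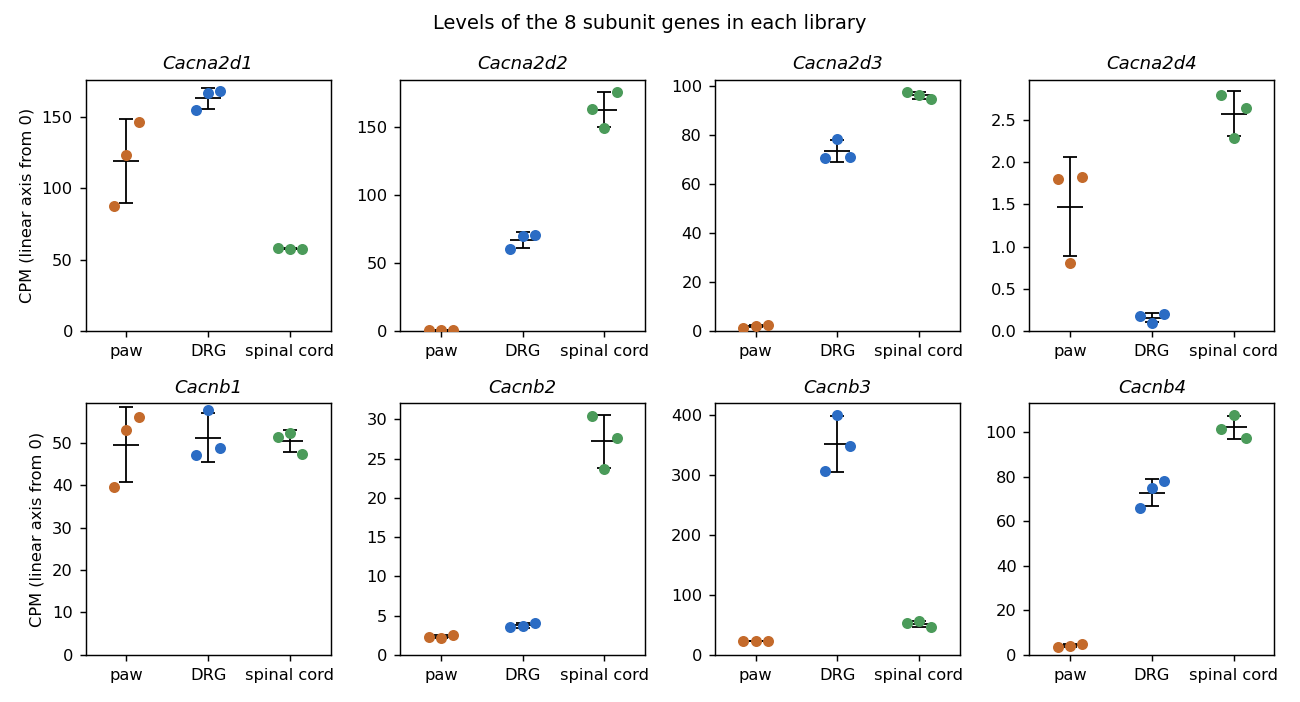
CPM (linear axes from 0) of each gene in the 9 libraries, with 1 point per library and a bar at the mean ± SD (n = 3) of paw, DRG and spinal cord. Cacna2d1 and Cacnb3 are highest in DRG, Cacna2d2 and Cacnb2 in spinal cord, and the points of Cacnb1 overlap across the tissues.

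Cacna2d1, which encodes the main gabapentin-binding subunit and is also the alpha2delta gene of skeletal muscle channels, was highest in DRG, followed by paw and then spinal cord. It stood at 87.9, 123 and 147 CPM in paw 1 to 3, at 155, 167 and 168 CPM in DRG 1 to 3 and at 58.2, 57.8 and 57.2 CPM in spinal cord 1 to 3. All DRG libraries lay above all paw libraries, which lay above all spinal cord libraries, and the spinal cord values were nearly equal. DRG exceeded spinal cord by 1.50 ± 0.15 (edgeR adjusted p = 6.51e-06), a 2.82-fold difference with a 95% interval of 2.24 to 3.56. In paw it was higher than in spinal cord by 1.05 ± 0.15 (adjusted p = 4.87e-05) and lower than in DRG (−0.45 ± 0.15, adjusted p = 0.0148). That last call was lost with upper quartile scaling (−0.32, adjusted p = 0.0737), which shifted the median of all genes by 0.12 in paw over DRG. It was also lost with DRG 1 and DRG 2 both left out (−0.50, adjusted p = 0.0685). Its adjusted p ran from 0.00142 to 0.0737 over the alternatives.

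Muscle genes differed between the paw libraries as well. Paw 1 had the lowest Cacna2d1, the lowest sum of muscle markers and the lowest level of 4 of the 6 markers, among them Acta1 (2268, 3540 and 3910 CPM in paw 1 to 3) and Tnnt3 (1365, 1777 and 2193 CPM). Myh4 had another order, at 2448, 443 and 925 CPM in paw 1 to 3. All 6 muscle markers had reads in every library, and their part in the paw level of Cacna2d1 was not tested. Among the DRG libraries, DRG 3 had the lowest muscle sum and the highest Cacna2d1.

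Cacna2d2, the second gabapentin-binding subunit, whose loss underlies the ataxic ducky mouse, had the opposite order between the nerve tissues. Its CPM values were 0.838, 0.617 and 0.530 in paw 1 to 3, 60.5, 69.9 and 70.7 in DRG 1 to 3, and 163, 149 and 176 in spinal cord 1 to 3. No paw library reached 1 CPM, and spinal cord lay above DRG without overlap. Cacna2d2 was lower in DRG than in spinal cord (−1.28 ± 0.11, adjusted p = 1.1e-06), so that spinal cord had 2.43 times the DRG level. In paw it was lower than in DRG (−6.65 ± 0.16, adjusted p = 1.72e-11) and lower than in spinal cord (−7.93 ± 0.17, adjusted p = 8.21e-12). The paw values rest on 14, 10 and 9 reads. Cacna2d2 had the largest falls among the 8 genes in both paw comparisons, also under each of the 18 alternatives run.

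Cacna2d3, whose protein does not bind gabapentin and which has a known role in heat pain in flies and mice, shared the tissue order of Cacna2d2. It stood at 1.50, 2.22 and 2.59 CPM in paw 1 to 3, at 70.9, 78.7 and 71.3 CPM in DRG 1 to 3 and at 97.9, 96.4 and 94.7 CPM in spinal cord 1 to 3. DRG was lower than spinal cord (−0.39 ± 0.12, adjusted p = 0.0126), with no overlap between libraries. This call was lost with DRG 1 and DRG 2 both left out (−0.43, adjusted p = 0.0776) and with spinal cord 1 and spinal cord 3 both left out (−0.38, adjusted p = 0.0906). Its adjusted p ran from 0.000239 to 0.0906 over the alternatives. Paw was lower than DRG (−5.12 ± 0.15, adjusted p = 6.14e-11) and lower than spinal cord (−5.51 ± 0.16, adjusted p = 3.57e-11).

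Cacna2d4, known for its role in retinal photoreceptors, had few reads in every tissue. It had 30, 13 and 31 reads in paw 1 to 3, 4, 2 and 4 reads in DRG 1 to 3, and 56, 49 and 46 reads in spinal cord 1 to 3. Its mean was 1.48 ± 0.583 CPM in paw, 0.158 ± 0.0539 in DRG and 2.58 ± 0.264 in spinal cord (SD, n = 3 each). The DRG libraries lay near the floor of 3 reads, and DRG 2 lay below it. The sizes of the fold changes against DRG therefore rest on very few reads. Cacna2d4 was the only member called higher in paw than in DRG (3.17 ± 0.44, adjusted p = 3.5e-05). DRG was lower than spinal cord (−3.97 ± 0.41, adjusted p = 7.66e-06). Paw was lower than spinal cord (−0.80 ± 0.31, adjusted p = 0.0313). This last call was lost with DESeq2 (adjusted p = 0.0751), without paw 2 (−0.48, adjusted p = 0.14), without spinal cord 1 (adjusted p = 0.0834), without spinal cord 3 (adjusted p = 0.077) and with both of those spinal cord libraries left out (adjusted p = 0.248). Its adjusted p ran from 0.0177 to 0.248 over the alternatives.

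Cacnb3, a neuronal beta subunit found with N-type channels, had the largest excess in DRG over spinal cord of the 8 genes. Its CPM values were 23.0, 23.6 and 22.7 in paw 1 to 3, 307, 400.4 and 348 in DRG 1 to 3, and 53.3, 56.7 and 46.7 in spinal cord 1 to 3. The lowest DRG library thus lay above the highest spinal cord library, and every paw library below every spinal cord library. In DRG Cacnb3 exceeded its spinal cord level by 2.75 ± 0.12 (adjusted p = 4.91e-09), a 6.73-fold difference with a 95% interval of 5.64 to 8.04. Paw was lower than DRG (−3.93 ± 0.12, adjusted p = 8.98e-11) and lower than spinal cord (−1.18 ± 0.12, adjusted p = 1.59e-06). Paw retained Cacnb3 reads at a level that differed little between its libraries, with an SD of 0.491 CPM around 23.1 CPM.

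Cacnb4, the beta subunit mutated in the lethargic mouse, had 3.77, 4.20 and 4.71 CPM in paw 1 to 3, 66.1, 74.7 and 77.9 CPM in DRG 1 to 3 and 101.4, 108 and 97.6 CPM in spinal cord 1 to 3. The tissues did not overlap. It was lower in DRG than in spinal cord (−0.49 ± 0.10, adjusted p = 0.00117), a call lost with DRG 1 and DRG 2 both left out (−0.39, adjusted p = 0.0502, within a range of 1.63e-05 to 0.0502 over the alternatives). Paw was lower than DRG (−4.11 ± 0.12, adjusted p = 5.02e-11) and lower than spinal cord (−4.59 ± 0.12, adjusted p = 2.34e-11). Its order across tissues was that of Cacna2d3. The centred log2 levels of these 2 genes differed by a root mean square of 0.48 over the 9 libraries, the smallest such distance among the 28 pairs of members.

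Cacnb2, the main beta subunit of heart muscle, was highest in spinal cord. It had 2.33, 2.16 and 2.53 CPM in paw 1 to 3, 3.53, 3.72 and 4.11 CPM in DRG 1 to 3 and 30.4, 23.7 and 27.7 CPM in spinal cord 1 to 3. Again the tissues did not overlap. DRG was lower than spinal cord (−2.85 ± 0.14, adjusted p = 1.71e-08), so that spinal cord had 7.19 times the DRG level. Paw was lower than spinal cord (−3.53 ± 0.15, adjusted p = 9.99e-10) and lower than DRG (−0.69 ± 0.16, adjusted p = 0.00197).

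Cacnb1, the beta subunit that skeletal muscle needs for excitation-contraction coupling, did not pass the test in any comparison. It stood at 39.4, 53.0 and 56.0 CPM in paw 1 to 3, at 47.0, 57.7 and 48.6 CPM in DRG 1 to 3 and at 51.3, 52.2 and 47.4 CPM in spinal cord 1 to 3. The libraries of all 3 tissues overlapped, whereas those of 64.5% of all genes did not overlap in DRG over spinal cord, 83.4% in paw over DRG and 83.5% in paw over spinal cord. The difference of DRG over spinal cord was 0.02 (95% interval −0.27 to 0.32, adjusted p = 0.898). That of paw over DRG was −0.05 (95% interval −0.34 to 0.25, adjusted p = 0.759), and that of paw over spinal cord −0.02 (95% interval −0.32 to 0.27, adjusted p = 0.877). As linear ratios, the intervals ran from 0.789 to 1.25. Cacnb1 was lowest in paw 1, as was Cacna2d1. In DRG it was highest in DRG 2, the DRG library with the highest muscle sum. DRG 1 and DRG 3 had the other order, with less Cacnb1 in DRG 1 (47.0 against 48.6 CPM) and a higher muscle sum (607 against 31.6 CPM). The part of muscle in these levels was not tested.

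**Figure D2:**
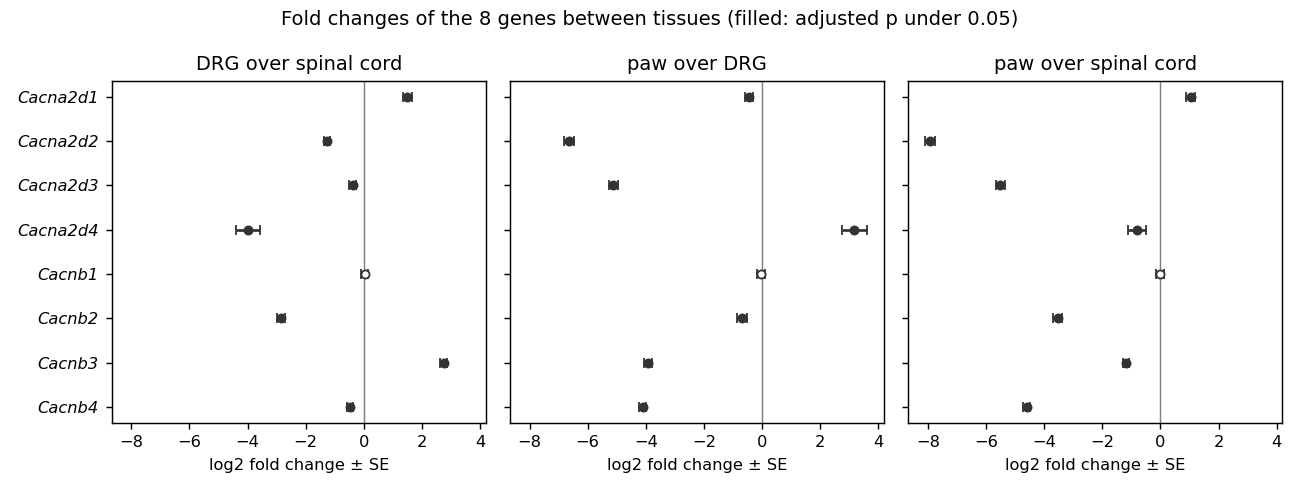
Log2 fold change ± SE (horizontal axis) of each gene in DRG over spinal cord, paw over DRG and paw over spinal cord, with filled points where the adjusted p was under 0.05. Cacnb1 lies within 0.05 of 0 in all 3 panels, Cacna2d1 and Cacnb3 lie to the right for DRG over spinal cord, and Cacna2d4 alone lies to the right for paw over DRG.

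Neuronal markers also differed between the tissues. The pan-neuronal markers Rbfox3, Snap25, Tubb3, Uchl1, Syt1 and Stmn2 summed to 62.7 to 78.3 CPM in paw, 7579 to 9313 CPM in DRG and 4837 to 6355 CPM in spinal cord. Their log2 fold changes ran from −10.25 to −6.15 in paw over DRG, with a median of −7.77. In that comparison Cacna2d2 lay within this range, while Cacna2d3, Cacnb3 and Cacnb4 had smaller falls. In paw over spinal cord the markers ran from −9.68 to −3.92. There Cacna2d2, Cacna2d3 and Cacnb4 lay within the range, and the other members, Cacnb3 among them, lay above it. Between DRG and spinal cord the 6 markers ran from −1.12 to 2.23, and Cacna2d2, Cacna2d4, Cacnb2 and Cacnb3 lay outside that range. Their part in the members' differences was not tested.

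Levels of different genes were compared per kilobase of the longest coding transcript in GENCODE M21. Among the alpha2delta genes in DRG, Cacna2d1 had 21.9 ± 0.990 and Cacna2d3 19.9 ± 1.19 CPM per kilobase (SD, n = 3), with overlapping libraries, followed by Cacna2d2 at 11.5 ± 0.976. In spinal cord Cacna2d2 had 28.0 ± 2.25 and Cacna2d3 26.1 ± 0.433 CPM per kilobase, again overlapping, followed by Cacna2d1 at 7.77 ± 0.0648. In paw Cacna2d1 stood alone, with 16.0 ± 3.98 CPM per kilobase and no other member above 0.6. As shares of the family, Cacna2d1 made up 94.4 ± 0.997% in paw, 41.1 ± 0.822% in DRG and 12.5 ± 0.472% in spinal cord. Cacna2d2 made up 0.729 ± 0.365% in paw, 21.6 ± 0.921% in DRG and 44.9 ± 2.19% in spinal cord. The genes of the gabapentin-binding proteins, Cacna2d1 and Cacna2d2, together held 95.1 ± 0.692% in paw, 62.7 ± 1.42% in DRG and 57.4 ± 1.73% in spinal cord. With coding length in place of transcript length, these shares were 97.1%, 75.3% and 68.0%. By coding length Cacna2d3 also stood further behind, with 24.7% in DRG against 54.1% for Cacna2d1. In spinal cord it then had 31.2% against 49.6% for Cacna2d2. Within a library, the ratio of Cacna2d1 to Cacna2d2 per kilobase was 1.86 to 2.00 in DRG and 0.255 to 0.302 in spinal cord. The order of the pair was thus turned round between the nerve tissues in every library.

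Among the beta genes, 1 gene dominated in DRG. There Cacnb3 held 83.8 ± 0.635% of the family, at 129 ± 17.1 CPM per kilobase against 15.1 ± 1.71 for Cacnb1, the next gene by transcript length. In spinal cord no gene held as much. Cacnb3 had 35.8 ± 1.67%, Cacnb1 27.8 ± 0.154%, Cacnb4 23.4 ± 0.68% and Cacnb2 13.0 ± 1.85%. In paw Cacnb1 led with 60.1 ± 4.37%, followed by Cacnb3 with 35.3 ± 4.12%. The summed level was 24.1 ± 2.66 CPM per kilobase in paw, 154 ± 19.2 in DRG and 53.2 ± 2.9 in spinal cord for beta genes. For alpha2delta genes it was 17.0 ± 4.09, 53.4 ± 2.72 and 62.3 ± 2.07 CPM per kilobase in paw, DRG and spinal cord. These are descriptions of shares, with no test. With coding length in place of transcript length, the leading genes in paw and DRG stayed Cacna2d1, Cacnb1 and Cacnb3. The order behind Cacnb3 in DRG turned, with Cacnb4 at 14.9% and Cacnb1 at 7.97%. In spinal cord Cacna2d2 still led its family, but Cacnb4 (46.8%) then led the beta genes, ahead of Cacnb3 (25.6%), Cacnb1 (17.6%) and Cacnb2 (9.91%). The length of the Cacnb4 transcript, 8225 bases with 1557 coding, is behind these changes by construction.

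**Figure D3:**
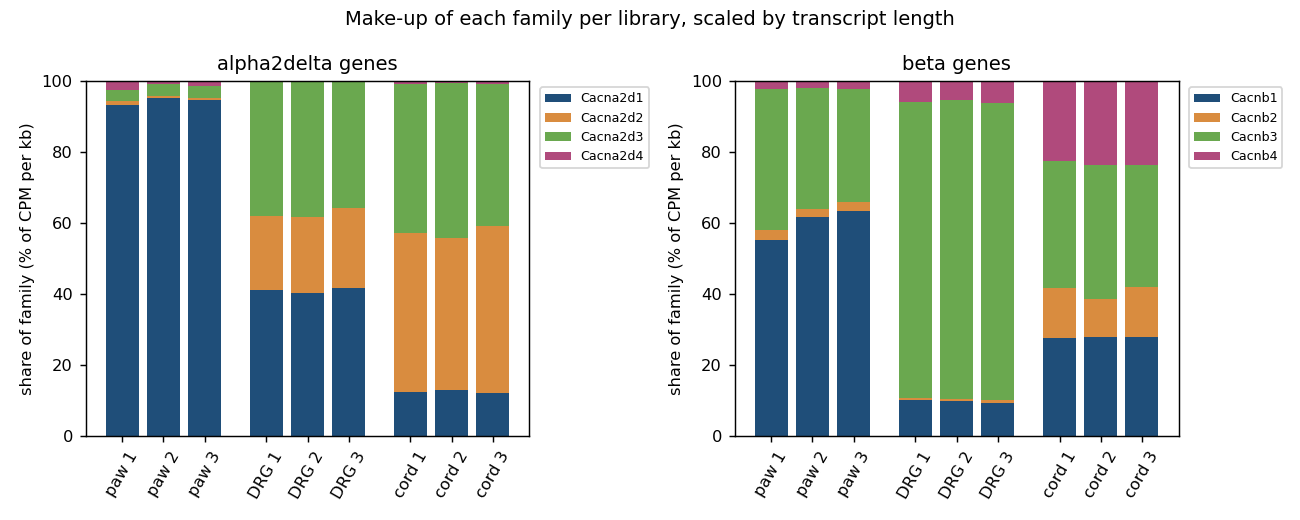
Stacked shares (percent of the family's CPM per kilobase of transcript) of the 4 alpha2delta genes and the 4 beta genes in each of the 9 libraries, in the order paw, DRG and spinal cord. Libraries of a tissue look alike, with Cacna2d1 filling 94.4% of the alpha2delta bars in paw on average and Cacnb3 filling 83.8% of the beta bars in DRG.

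A pair of alpha2delta genes hold a different gene inside an intron, on the other strand. In GENCODE M21 Lrtm1 lies within Cacna2d3 and Lrtm2 within Cacna2d4, with no overlap of exons. Both neighbours encode leucine-rich repeat membrane proteins. Lrtm1 had 499, 666 and 951 reads in paw 1 to 3, 2, 9 and 4 reads in DRG 1 to 3 and 1, 0 and 0 reads in spinal cord 1 to 3. Its paw level exceeded that of DRG by 7.44 ± 0.39 (adjusted p = 1.24e-08), while its host Cacna2d3 was lower there (−5.12). Host and nested gene therefore had opposite tissue orders. Lrtm1 was also lowest in paw 1 and highest in paw 3, as Cacna2d1 was. Lrtm2 stood at 2.52 ± 0.552 CPM in paw, 7.13 ± 2.53 in DRG and 75.4 ± 5.82 in spinal cord (SD, n = 3 each). It was lower in DRG than in spinal cord (−3.40 ± 0.21, adjusted p = 1.8e-07), in the same direction as its host Cacna2d4 at −3.97. Between paw and DRG the pair parted, with Lrtm2 lower in paw (−1.50 ± 0.25, adjusted p = 0.000193) and Cacna2d4 higher. Over spinal cord Cacna2d3 had 5672 reads and Lrtm1 1, while Cacna2d4 had 151 and Lrtm2 4459. The strand setting of the counting is not given in the sources used here. Reads of unspliced host RNA at the nested gene could therefore not be told from its own by strand, and their part was not tested. In the same annotation, exons of Cacna2d2, Cacnb1, Cacnb2 and Cacnb4 overlap non-coding genes on the other strand that have no row of their own in the counts, so the levels of these 4 genes carry that uncertainty too.

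**Figure D4:**
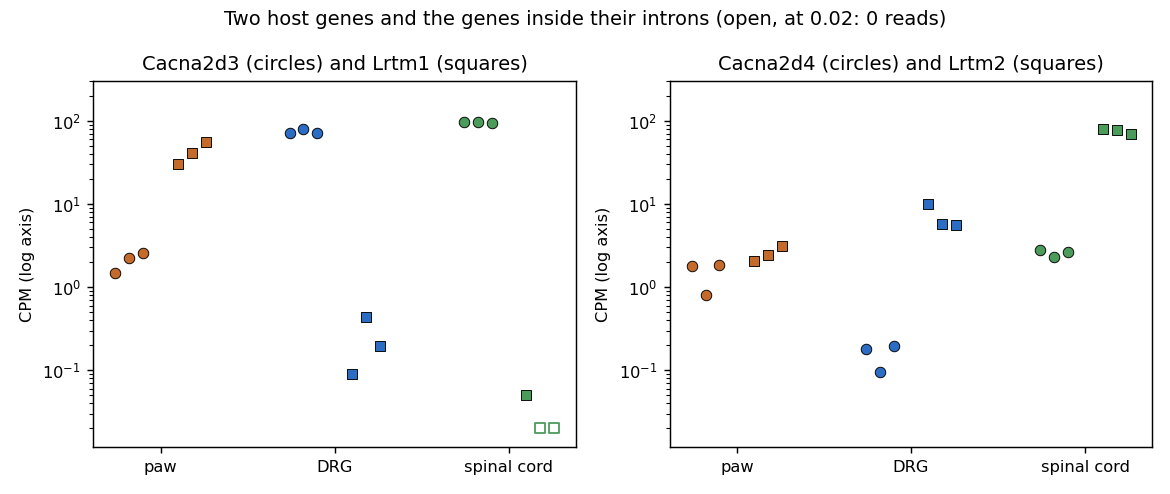
CPM (log axis) of Cacna2d3 and Cacna2d4 as circles and of the genes inside their introns, Lrtm1 and Lrtm2, as squares, with 1 point per library of paw, DRG and spinal cord and open squares at 0.02 for 0 reads. Lrtm1 is high in paw where Cacna2d3 is low, and Lrtm2 and Cacna2d4 are both highest in spinal cord.

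The genes whose tissue patterns were most like each member were sought among 12795 other tested genes with a mean of at least 5 CPM, by the root mean square difference of centred log2 CPM over the 9 libraries. For Cacna2d1 they were Gyg (0.11), Kcnj12 (0.14) and Fdps (0.16). Gyg encodes glycogenin, which starts glycogen synthesis in muscle, and Kcnj12 an inward rectifier potassium channel. For Cacna2d2 they were Ly6h (0.23), Crtac1 and Tmem108 (both 0.24), and for Cacna2d3 Tmem28 (0.16), Fbxl16 (0.16) and Lingo1 (0.17). For Cacna2d4 the nearest genes were further off, with Trim59 at 0.35, Ppp1r1b at 0.37 and Tnfrsf19 at 0.38. Those of Cacnb1 were Ccdc28b (0.08), Ndufb2 and Rnf115 (both 0.09). For Cacnb2 they were Sparcl1 (0.12) and Slc6a7 (0.18), for Cacnb3 Susd2 (0.17), Mest (0.19) and Prkar2b (0.21), and for Cacnb4 Pls1 (0.08), P4htm and Rcan2 (both 0.11). The 9 points of each pattern share 3 tissues, so the measure is a description.

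The pore genes of voltage-gated calcium channels were split between the nerve tissues. The counts called in this and the following lists stand against the shares over all genes tested. In DRG over spinal cord, 29.0% of all genes were called higher and 30.6% lower. These shares were 39.7% and 40.8% in paw over DRG, and 39.9% and 41.7% in paw over spinal cord. Of 9 tested pore genes, 4 were higher and 4 lower in DRG than in spinal cord, with a median of 0.11. The T-type pore Cacna1g was lower in DRG (−5.01 ± 0.14, adjusted p = 3.49e-10), while the P/Q-type pore Cacna1a did not pass the test, with a DRG mean of 141 ± 8.03 CPM and a spinal cord mean of 131 ± 16.5 CPM (SD, n = 3 each, edgeR adjusted p = 0.431). In paw over DRG, 2 pore genes were higher and 6 lower, with a median of −1.82. Cacna1b, the N-type pore, had the largest fall there (−9.74 ± 0.54, adjusted p = 1.19e-07), with 5 reads over the paw libraries. In DRG it exceeded spinal cord by 1.84 ± 0.28 (adjusted p = 0.000409). The R-type pore Cacna1e was not called in paw over DRG (−0.53 ± 0.23, adjusted p = 0.0531) and was called in 6 of 18 alternatives. In paw over spinal cord, 1 pore gene was higher and 8 were lower, with a median of −2.49, and the T-type pore Cacna1i fell furthest (−7.94 ± 0.28, adjusted p = 2.59e-10). Cacna1s, the skeletal muscle pore that pairs with the Cacna2d1 and Cacnb1 proteins, was the higher one. It averaged 231 ± 40.9 CPM in paw, 6.38 ± 3.2 in DRG and 0.914 ± 0.506 in spinal cord, and DRG exceeded spinal cord by 2.84 ± 0.52 (adjusted p = 0.0016). The muscle markers in DRG 1 and DRG 2, given above, moved with it, and their part was not tested.

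The gamma genes, whose products are muscle channel subunits or regulators of AMPA receptors, had 1 member higher and 5 lower of 8 in DRG over spinal cord. Cacng8 was lower (−4.24 ± 0.30, adjusted p = 1.76e-06). Cacng6, the higher one, had 17 reads over DRG and 0 over spinal cord, and its call (adjusted p = 0.0334) was lost in 11 of 17 alternatives, where the adjusted p reached 1. Cacng5 was not called (0.34 ± 0.15, adjusted p = 0.064) and was called in 3 of 18 alternatives, among them those that left out DRG 3 or spinal cord 2, with adjusted p = 0.0317 and 0.0303 in a range of 0.017 to 0.654. Paw had 2 members higher and 6 lower against either nerve tissue. Cacng1, the gamma subunit of the muscle channel, exceeded its DRG level by 5.99 ± 0.54 in paw (adjusted p = 7.89e-06). The other higher gene was Cacng6, with 563 reads over paw. Cacng3 had 0 reads over paw, 76 over DRG and 1194 over spinal cord. The list's median was −1.83 in DRG over spinal cord and −6.49 in paw over spinal cord. In paw over DRG it was −5.29 as fitted and −3.97 with genes of 0 reads set at 3 reads over the tissue.

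RGK GTPases, which bind beta subunits and lower calcium current, and Stac adaptors had 3 members higher and 2 lower of 7 in DRG over spinal cord, with a median of −0.18. Stac was higher in DRG by 3.20 ± 0.13 (adjusted p = 3.69e-09) and the GTPase Gem lower (−1.01 ± 0.25, adjusted p = 0.00444). In paw over DRG, 3 were higher and 3 lower, with a median of 0.24, and in paw over spinal cord, 4 were higher and 3 lower, with a median of 1.49. Stac3, the adaptor of muscle excitation-contraction coupling, led the higher genes in both paw comparisons (4.00 ± 0.23 over DRG, adjusted p = 2.1e-08). It was not called in DRG over spinal cord (adjusted p = 0.554). Stac led the lower ones in paw over DRG (−5.00 ± 0.15, adjusted p = 6.48e-11) and Stac2 in paw over spinal cord (−4.43 ± 0.18, adjusted p = 6.54e-10). Rem1 was not called in paw over DRG (0.24 ± 0.29, adjusted p = 0.447).

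Among partners of calcium channels in the cytoplasm and at release sites, 3 of 4 were called higher in DRG than in spinal cord. None was called lower, and the median was 0.50. Ahnak, a large scaffold protein, was higher by 2.40 ± 0.38 (adjusted p = 0.000565). It stood at 130, 142 and 346 CPM in spinal cord 1 to 3, highest in the library with the highest Schwann and fibroblast sums (1042 CPM of fibroblast markers in spinal cord 3, against 436 and 347 CPM in spinal cord 1 and 2), and the part of those cells was not tested. Without spinal cord 3 its excess was 3.01 (adjusted p = 1.65e-06, within 5.92e-07 to 0.00606 over the alternatives). The calls of the release-site genes Rims1 (adjusted p = 0.0375) and Rims2 (adjusted p = 0.0388) were lost in 12 and 9 of 18 alternatives. In 8 alternatives, among them leaving out DRG 1, DRG 3, paw 1, spinal cord 1 or spinal cord 2, 1 of the 4 was called in place of 3. Rimbp2 was not called (−0.27 ± 0.36, adjusted p = 0.555). In paw over DRG, 3 were lower and none higher (median −6.44), with Rims2 at −7.05 ± 0.23 (adjusted p = 1.13e-10). Ahnak was not called there (0.87 ± 0.37, adjusted p = 0.0529) and was called in 7 of 18 alternatives. In paw over spinal cord, 3 were lower and 1 was higher (median −6.05), with Ahnak at 3.27 ± 0.40 (adjusted p = 4.33e-05, and 3.90 without spinal cord 3) and Rimbp2 at −7.09 ± 0.64 (adjusted p = 6.33e-06).

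Genes for ligands and partners of alpha2delta proteins had 4 members higher and 7 lower of 13 in DRG over spinal cord, with a median of −0.38. With 1 library left out, 8 to 12 genes of this list were called, against 11 with all libraries. Among the lower genes, Thbs2 lost its call in 7 of 18 alternatives. Nrxn2, whose fold change was the median, lost its call in 5 of 18. Thbs4, a thrombospondin of the family that binds the Cacna2d1 protein, averaged 194 ± 38.2 CPM in paw, 56.7 ± 24.1 in DRG and 1.90 ± 1.41 in spinal cord (SD, n = 3 each). Its excess in DRG over spinal cord was 4.95 ± 0.51 (adjusted p = 6.08e-05), and in paw over spinal cord it led the higher genes with 6.72 ± 0.53 (adjusted p = 4.29e-06). Grin2b, an NMDA receptor subunit, had few reads, with 1 over paw, 6 over DRG and 46 over spinal cord. It was the lowest in DRG over spinal cord (−2.96 ± 0.60, adjusted p = 0.00128). Prnp, the prion protein gene, was not called there (−0.24 ± 0.10, adjusted p = 0.0503) and was called in 7 of 18 alternatives. In paw over DRG, 6 were higher and 5 lower, with a median of 0.40, and Thbs1 led the higher ones (3.18 ± 0.41, adjusted p = 0.000111). Lrp1, a lipoprotein receptor, was not called there (0.40 ± 0.23, adjusted p = 0.12) and was called in 1 of 18 alternatives. In paw over spinal cord, 6 were higher and 7 lower, with a median of −0.55 and the NMDA receptor gene Grin1 at −8.74 ± 0.25 (adjusted p = 5.6e-11). That median was the fold change of Lrp1, whose call as lower was lost in 10 of 18 alternatives. Without spinal cord 3, Lrp1 was at −0.22 in paw over spinal cord (edgeR adjusted p = 0.282).

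Genes of gabapentin transport across membranes had 1 member higher and 1 lower of 4 in DRG over spinal cord, with a median of −0.12. Slc7a8 was the higher one (0.76 ± 0.13, adjusted p = 0.000297), and Slc3a2 was not called (−0.11 ± 0.08, adjusted p = 0.27). Against DRG and against spinal cord alike, 1 of the 4 was higher in paw and 3 were lower, with medians of −1.05 and −0.86. Slc7a8 was lower in paw than in DRG (−1.86 ± 0.13, adjusted p = 9.52e-08), and Slc7a5, the amino acid transporter known to take up gabapentin, was lower in paw than in spinal cord (−1.71 ± 0.11, adjusted p = 3.54e-08). Slc22a4, an organic cation transporter, had the opposite order, with means of 89.96 ± 9.64 CPM in paw, 5.01 ± 0.0543 in DRG and 38.2 ± 3.38 in spinal cord. The medians over all genes, given above, lay between −0.03 and −0.02.

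**Figure D5:**
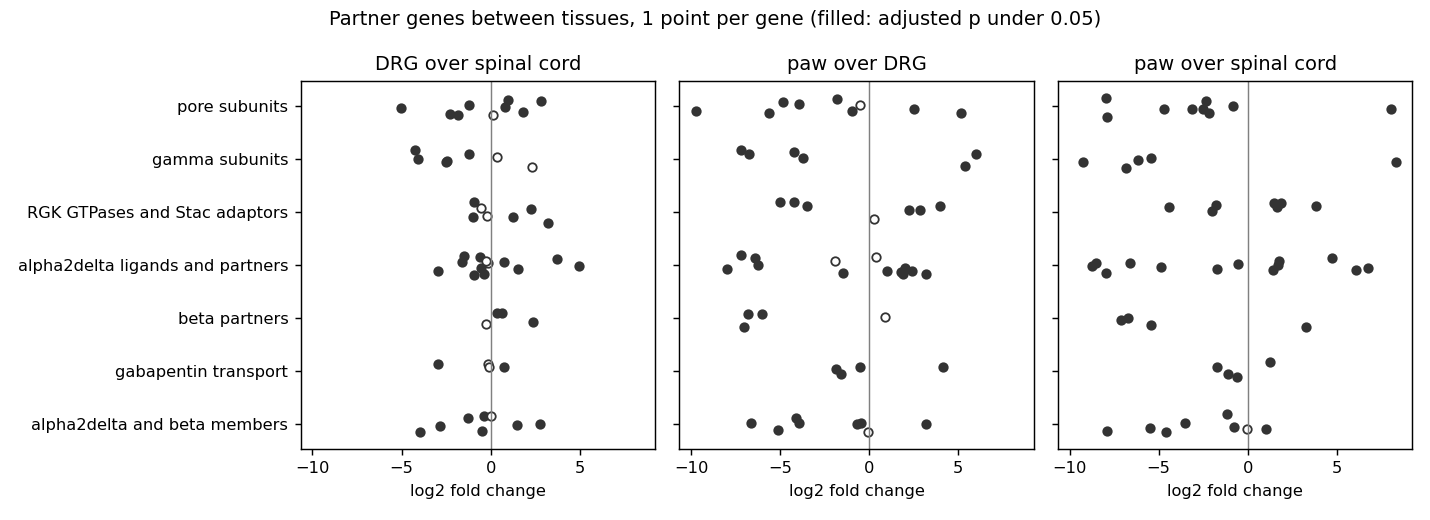
Log2 fold changes (horizontal axis) in the 3 comparisons, with 1 point per tested gene of each list and of the 8 members, filled where the adjusted p was under 0.05. Genes with 0 reads in either compared tissue are left out, and vertical scatter has no meaning. In the paw panels each list spans both sides of 0 or lies mostly to the left, and the 8 members lie within the span of the pore genes.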

How the data were processed

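RNA from 9 libraries, 3 each of paw, DRG and spinal cord, was read as 50 bp single ends after poly(A) selection with a strand-marking kit, per the labels' protocols. The submitters' processing notes name bcl2fastq, TopHat2, HTSeq and mm9. Tool versions, gene annotation and HTSeq's strand option are not given in the sources used, which leaves antisense and overlapping genes uncertain. What the authors deposited are whole-number read counts per gene symbol. The 5 summary rows held 42.9 to 59.3% of each file and stayed out of library sizes and tests.

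All 9 libraries entered 1 fit in edgeR 4.0.16 (R 4.3.3), with tissue as factor, 6 residual degrees of freedom, filterByExpr, TMM scaling, robust glmQLFit and glmQLFTest. The standard error is the fold change divided by the square root of F. DESeq2 1.42.0, limma 3.58.1 (voom), other scalings and left-out libraries were alternatives. The code was tested on simulated counts. No 2 libraries of a tissue looked like repeats of 1 library (chi-square per degree of freedom 7.55 to 38.4). Floors cover counting error only, since reads lack molecular identifiers. Lengths come from GENCODE M21 and promoters from RefSeq, both GRCm38, matched by symbol (7 of 8 members had promoters).

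Members and lists were chosen with earlier results of these data known, and all 138 entries matched a symbol, 1 through an older one. Named are all members, the called genes of largest fold in each direction and the most expressed gene not called of each list, and the 3 genes most like each member. A few genes that this rule takes are not reported here. Further mentions (Rims1, single markers, Cacna1b in DRG over spinal cord) were chosen after their values were seen.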

Additional observations from a re-analysis of the deposited data

How the results depend on the processing

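Over 18 alternatives, 408 of 432 repeats of the members' fold changes kept their direction and side of the threshold, 10 lost their call and 14, all of Cacnb1, changed sign. The number of members called stayed at 7 in DRG over spinal cord except with DRG 1 and DRG 2 both left out (5) or spinal cord 1 and spinal cord 3 both left out (6). It was 6 or 7 in the paw comparisons. Cacnb1, never called, changed sign with upper quartile factors (−0.0266 in DRG over spinal cord, 0.0791 in paw over DRG, 0.0525 in paw over spinal cord), with DRG 1 and DRG 2 both left out (−0.0433 in DRG over spinal cord, 0.0162 in paw over DRG) and with spinal cord 1 and spinal cord 3 both left out (−0.0185 in DRG over spinal cord). With 1 library left out it ran from −0.0662 to 0.0831 in DRG over spinal cord, −0.144 to 0.0825 in paw over DRG and −0.121 to 0.105 in paw over spinal cord. Among partner genes not called, sign changed for Stac3 (0.0172) and Rimbp2 (0.59) in DRG over spinal cord with spinal cord 1 and spinal cord 3 both left out, for Rimbp2 without spinal cord 3 (0.25, within −0.57 to 0.25 with 1 library left out), and for Grin2b in paw over DRG with DRG 1 and DRG 2 both left out (1.98). The cause was not tested. With coding length, shares moved to 96.5% for Cacna2d1 and 54.8% for Cacnb1 in paw, 54.1% for Cacna2d1 and 76.6% for Cacnb3 in DRG, and 49.6% for Cacna2d2 and 25.6% for Cacnb3 in spinal cord.

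Deviations from the tissue mean had correlations of −0.13 to 0.27 over 9 pairs of samples with the same replicate number, 2 of them over 0.1. Over 18 pairs with different numbers they ran from −0.45 to 0.34. With 3 samples a tissue these values cannot tell whether the numbers pair the samples. With a replicate block 7, 7 and 7 members were called in DRG over spinal cord, paw over DRG and paw over spinal cord, as without it, and 9500, 12906 and 13074 genes in all, against 9584, 12946 and 13127 without it. Among partner genes the block gave a call to Cacng5 in DRG over spinal cord (adjusted p = 0.017) and Ahnak in paw over DRG (0.0299), and ended that of Cacng6 in DRG over spinal cord (0.057) and Lrp1 in paw over spinal cord (0.058). Depth limits Cacna2d4 in DRG, with 10 reads over 3 libraries, and Cacna2d2 in paw, with 33.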
